A study of Mus musculus with 6 samples.

Results

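Genes that mark the endothelium of brain vessels, or that build the barrier it forms, were followed in mouse brain after oral dosing with oil palm phenolics (OPP), a water-soluble extract of oil palm fruit that is rich in phenolic acids. There were 10 of them, namely Vwf, Esam, Slc2a1, Cldn5, Pecam1, Flt1, Tek, Abcb1a, Ly6c1 and Cdh5, chosen by gene symbol out of 14776 genes named on the array. Of these 10 genes, 9 were paired with a probe, through 10 probes in all, and 6 were bright enough to be tested, out of 5809 genes tested.

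Brains came from male BALB/c mice at 12 weeks of age. The OPP group drank OPP at 1500 ppm gallic acid equivalents, a measure of total phenolics, for 6 weeks, and the control group drank distilled water. Both groups ate the same normal diet, and there were 3 arrays per group, each from the RNA of a different mouse. According to the methods, mice were killed under ether by bleeding before the brain was taken out, the RNA samples of highest integrity were hybridised, and outlying arrays were dropped by clustering, so the spread given here is what was left after that step. A cage could hold a whole group and cage assignments were not given, so an effect of the cage and an effect of OPP cannot be told apart. Which part of the brain was extracted was not given.

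Endothelial cells of brain capillaries are sealed to each other by tight junctions and carry little across in vesicles, so that most nutrients cross only through carriers in the cell membrane, while efflux pumps return many lipid-soluble compounds to the blood. Pericytes, a basement membrane and the endfeet of astrocytes surround the endothelium and help to maintain these properties. Endothelial cells make up a small part of brain tissue, and in such bulk RNA fewer endothelial cells and less RNA per cell cannot be told apart.

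Of the tested members with a promoter entry in RefSeq, Slc2a1 was lower in OPP brains by the unadjusted test and Flt1 did not pass it, and their promoter sequences are shown for that contrast, from 250 bases before to 50 bases after the annotated start (GRCm38.p6, Slc2a1 at chr4:119108495-119108794 on the plus strand and Flt1 at chr5:147725962-147726261 on the minus strand). Capitals mark matches on either strand to TATAAA (the TATA box), AGGAAG (the core bound by ETS factors, several of which act in endothelium) and ACGTG (the core of the hypoxia response element).
Slc2a1: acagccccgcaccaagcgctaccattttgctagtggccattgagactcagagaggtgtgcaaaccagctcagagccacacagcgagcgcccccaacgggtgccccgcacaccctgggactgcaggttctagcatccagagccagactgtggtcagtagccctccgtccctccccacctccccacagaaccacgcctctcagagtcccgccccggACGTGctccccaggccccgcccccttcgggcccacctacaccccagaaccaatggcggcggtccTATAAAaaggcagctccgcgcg
Flt1: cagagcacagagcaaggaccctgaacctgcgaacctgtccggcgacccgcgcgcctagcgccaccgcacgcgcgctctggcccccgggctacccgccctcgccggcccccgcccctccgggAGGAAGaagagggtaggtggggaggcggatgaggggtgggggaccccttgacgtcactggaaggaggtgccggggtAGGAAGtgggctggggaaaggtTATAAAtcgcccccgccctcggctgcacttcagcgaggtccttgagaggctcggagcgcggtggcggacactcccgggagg
The Slc2a1 window held ACGTG at position -36 and TATAAA at position 28 from the start. In the Flt1 window, TATAAA lay at position -31 and AGGAAG at positions -129 and -53. Among 32851 promoter windows of this length, 13.6% held TATAAA, 35.4% held AGGAAG and 19.6% held ACGTG, so each match was common and is given as a description only. Ly6c1, which did not pass either, has 2 annotated starts and its windows are not shown. They held TATAAA at position -143 from the first and AGGAAG at positions -126, -38 and -34 from the second.

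The arrays were alike in brightness, while each OPP array had more probes above background than each control array. Median probe intensity was 218 to 245 on OPP arrays and 205 to 226 on control arrays, and 7636 to 7903 probes on OPP arrays and 7442 to 7614 on control arrays lay above background. Between arrays, log2 intensities correlated at 0.969 to 0.987 across probes. Control replicate 2 stood apart in blood cell transcripts: the mean log2 intensity of 4 granulocyte genes was 8.18, 8.17 and 8.20 on OPP arrays, against 9.22, 12.18 and 9.33 on control arrays. Across 7611 tested probes, 1 differed at an adjusted p under 0.05 in limma (0.0131%), which was Hoxb5. At an unadjusted p under 0.05, 168 probes were lower (2.21%) and 126 higher (1.66%) in OPP brains. If no probe differed, about 381 in both directions together would be expected to pass, which is more than did. Genes called lower or higher below by the unadjusted test are to be read with that in mind. Without scaling between arrays the split was 71 lower and 147 higher, so the share that was higher was 67.4%, against 42.9% with scaling.

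Among the 6 tested members, Vwf, Esam and Slc2a1 were lower in OPP brains at an unadjusted p under 0.05, and none was higher. Ly6c1 and Flt1 had fold changes below 0 that did not pass the test, and Pecam1 was nearly equal in both groups. None of the 6 passed after Benjamini-Hochberg adjustment over all tested probes (limma, adjusted p = 0.996 for each except Pecam1 at 1.00). The median log2 fold change of the 6 was -0.29, against -0.00 over all tested probes, and 5 of 6 lay below 0, where 51.1% of all tested probes did. In 2 of the 6 genes each OPP array lay below each control array, a pattern seen in 5.43% of all tested probes. The members were chosen with earlier results of these data known, so these comparisons with all probes are descriptions only. The count of 3 lower members ranged from 0 without control replicate 3 to 4 without control replicate 1, and was 2 without OPP replicate 1 or control replicate 2 and 1 without OPP replicate 2 or OPP replicate 3.

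**Figure D1:**
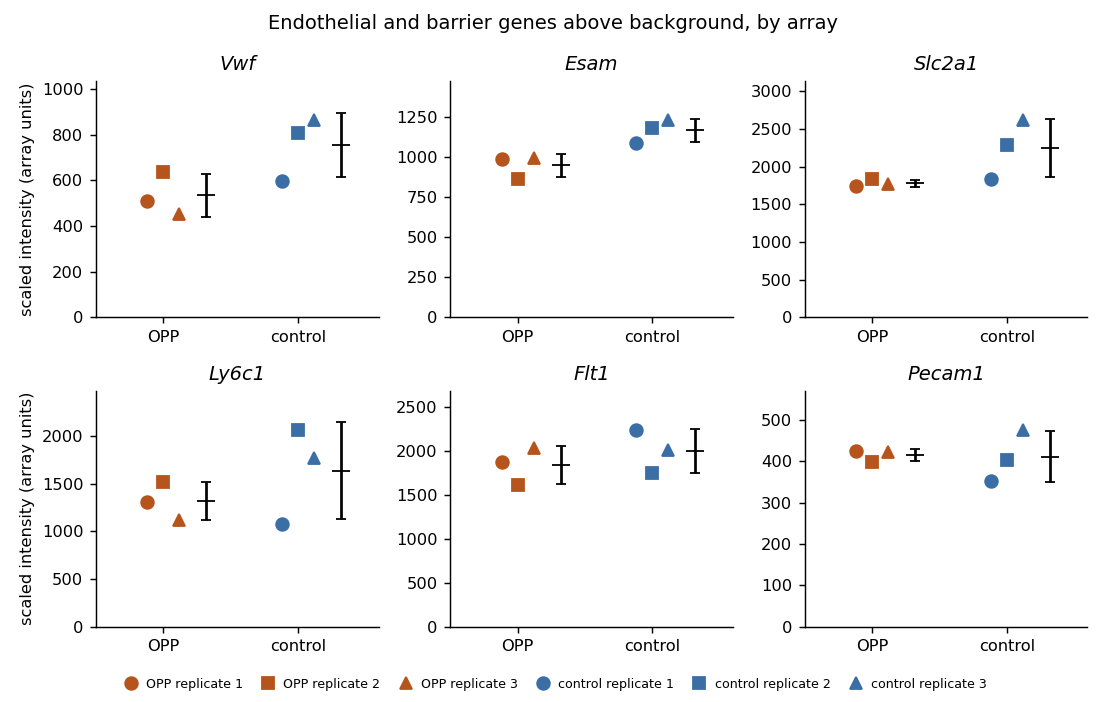
Scaled intensity (vertical axes, arbitrary units, each panel on its own scale) of the tested members on each array, OPP at the left and control at the right, where points are single arrays and the marks beside them are group means with bars for the SD (n = 3 each). The Esam arrays of the 2 groups do not overlap, those of Slc2a1 are separated by 5.11 units, and those of Pecam1 overlap throughout.

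Vwf encodes von Willebrand factor, the large glycoprotein that endothelial cells store and release to capture platelets at sites of injury, and that carries coagulation factor VIII. Scaled intensity was 511, 637 and 453 on the 3 OPP arrays, against 598, 809 and 863 on the control arrays. OPP replicate 2 lay above control replicate 1, so the groups overlapped, while control replicates 2 and 3 were above every OPP array. The mean was 534 ± 94.3 in OPP brains and 757 ± 140 in control brains (SD, n = 3 each), a log2 fold change of -0.50 ± 0.17 (SE; 95% confidence interval -0.89 to -0.11, limma unadjusted p = 0.0167, adjusted p = 0.996). By p-value its probe was number 93 of 7611. An exact two-sided permutation test on this gene alone gave p = 0.2, where the smallest p that 3 against 3 arrays allow is 0.1. Leaving out each array in turn gave log2 fold changes of -0.66 to -0.39, and the unadjusted p was over 0.05 without OPP replicate 3 (-0.39, limma unadjusted p = 0.0672) and without control replicate 3 (-0.40, limma unadjusted p = 0.0674). On the deposited background-subtracted values its log2 fold change was -0.72, and 35.0% of the OPP intensity was background by that measure. Vwf is also made by megakaryocytes and carried in platelets. Of 8 probes for platelet and megakaryocyte genes, 0 lay above background on any of the 6 arrays. The part of platelets in the Vwf values was not tested.

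Esam encodes an adhesion molecule of endothelial tight junctions, also found on platelets. It gave 983.5, 864 and 991 on OPP arrays, against 1088, 1179.5 and 1227 on control arrays. Each OPP array was below each control array, both as scaled here and on the authors' background-subtracted values, though not on the unscaled intensities. Mean intensity was 946 ± 71.3 in OPP brains and 1165 ± 70.3 in control brains (SD, n = 3 each). The log2 fold change was -0.30 ± 0.11 (SE; 95% confidence interval -0.54 to -0.06, limma unadjusted p = 0.0188, adjusted p = 0.996). The exact permutation p was 0.1, the smallest possible. With 1 array left out, the log2 fold change of Esam stayed between -0.35 and -0.24, and the unadjusted p was over 0.05 without OPP replicate 2 (limma unadjusted p = 0.0753) or control replicate 3 (limma unadjusted p = 0.0715). It was also over 0.05 without scaling between arrays (-0.24, limma unadjusted p = 0.126).

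Slc2a1 encodes GLUT1, the carrier through which most glucose enters the brain across the endothelium, and which astrocytes also carry. Its intensities were 1740, 1832 and 1775 on OPP arrays, against 1837, 2294 and 2615 on control arrays. The OPP arrays lay close together (coefficient of variation 2.60%) and the control arrays far apart (17.4%), with control replicate 1 only 5.11 units above the highest OPP array. On the deposited background-subtracted values control replicate 1, at 1544, lay within the OPP arrays, which were at 1541, 1692 and 1564. The mean was 1782 ± 46.3 in OPP brains and 2249 ± 391 in control brains (SD, n = 3 each), a log2 fold change of -0.32 ± 0.13 (SE; 95% confidence interval -0.63 to -0.02, limma unadjusted p = 0.0410, adjusted p = 0.996, exact permutation p = 0.1). The value moved between -0.46 and -0.20 as single arrays were left out, and among those 6 fits only the one without control replicate 1 kept an unadjusted p under 0.05. It was also over 0.05 without scaling between arrays (limma unadjusted p = 0.143), with quantile normalization (0.0776), with normexp background correction (0.121) and on the authors' values (0.113). Of the 3 lower genes, Slc2a1 thus passed under the fewest of the alternatives, 5 of 14.

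**Figure D2:**
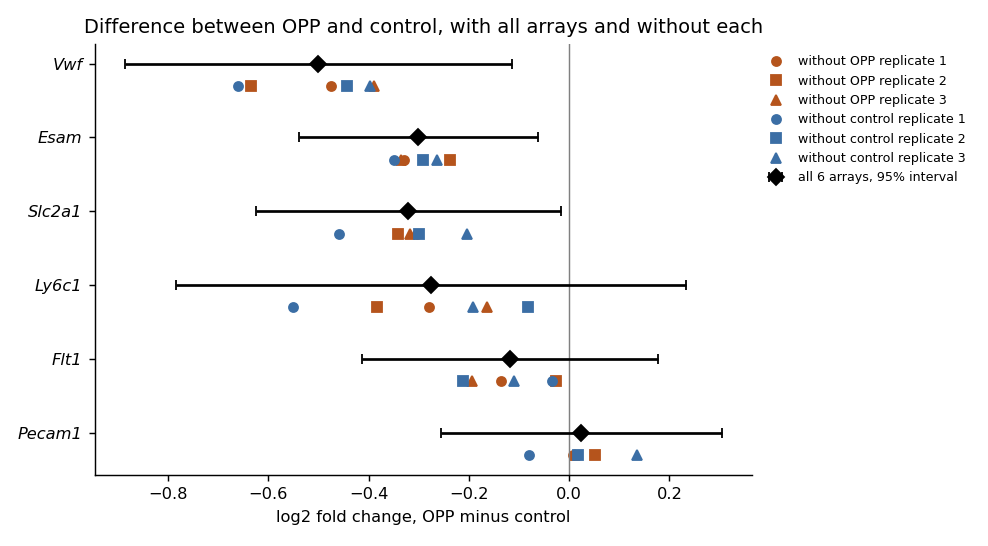
Log2 fold change, OPP minus control (horizontal axis), of the 6 tested members, with points for the limma estimate and bars for the 95% confidence interval, and with the estimates after leaving out each array in turn. Only the intervals of Vwf, Esam and Slc2a1 end below 0, and that of Pecam1 is centred near 0.

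Ly6c1 encodes a surface antigen of the Ly6 family, anchored by a lipid, that marks mouse brain endothelium and is found on some monocytes and lymphocytes. OPP arrays gave 1312, 1514 and 1117, against 1077, 2061 and 1769 on control arrays. Control replicate 1 was the lowest of all 6 arrays and the other two control arrays were the highest. The log2 fold change was -0.27 ± 0.22 (SE; 95% confidence interval -0.78 to 0.23, limma unadjusted p = 0.253), and without control replicate 1 it was -0.55, with an unadjusted p of 0.0070. Without control replicate 2 it was -0.08, with an unadjusted p of 0.688. Lyz2, a gene of monocytes and granulocytes and the 1 tested gene of the monocyte and lymphocyte list, had log2 intensities of 8.40, 8.30 and 8.09 on OPP arrays, against 8.31, 10.16 and 8.77 on control arrays, and its part in the Ly6c1 values was not tested. Ly6c2, a near-identical neighbour, was paired with no probe on the array, so signal from it in the Ly6c1 probe cannot be told apart.

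Flt1 encodes VEGF receptor 1, which binds vascular endothelial growth factor and also exists as a soluble form. The brighter of its 2 probes gave 1877, 1615.5 and 2035 on OPP arrays, against 2240, 1749 and 2015 on control arrays, so the groups overlapped. Its log2 fold change was -0.12 ± 0.13 (SE; 95% confidence interval -0.41 to 0.18, limma unadjusted p = 0.388). The dimmer probe, at 190.5 to 224 on OPP arrays and 202 to 235 on control arrays, was above background on none of the 6 arrays and was not tested.

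Pecam1 encodes CD31, an adhesion molecule along endothelial cell borders that is also present on platelets and leukocytes. Values were 424, 398 and 421 on OPP arrays, against 352.5, 403.5 and 475 on control arrays. The group means were 414 ± 14.0 in OPP brains and 410 ± 61.6 in control brains (SD, n = 3 each), with a log2 fold change of 0.02 ± 0.12 (SE; 95% confidence interval -0.26 to 0.30, limma unadjusted p = 0.850). Differences of up to 0.26 downwards or 0.30 upwards on the log2 scale are thus inside the interval. That interval is for intensities that still hold background, which made up 45.6% of the OPP intensity by the authors' measure. On the deposited background-subtracted values the log2 fold change of Pecam1 was 0.06 ± 0.23 (SE). With this larger SE, the interval above does not bound differences in the background-subtracted values. The sign turned with processing, to -0.08 without control replicate 1 and -0.07 with array weights.

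The remaining members gave no usable difference, among them several that define brain endothelium. Cdh5, which encodes VE-cadherin, the main cadherin of endothelial adherens junctions, was at 293, 292 and 222 on OPP arrays, against 294, 286 and 238.5 on control arrays. It was above background on 2 of 3 OPP arrays and 1 of 3 control arrays, short of the level set for testing. Tek encodes TIE2, the receptor for angiopoietins. It was at 228 to 244 on OPP arrays and 190.0 to 237.5 on control arrays, above background on none. Abcb1a encodes P-glycoprotein, the efflux pump of the blood-facing membrane. Its values of 179 to 191 on OPP arrays and 174 to 193 on control arrays were above background on none of the arrays. Cldn5, which encodes the tight junction protein claudin-5, was paired with no probe by symbol, gene identifier or accession. The endothelial label thus rests on Vwf, Esam, Slc2a1, Ly6c1, Flt1 and Pecam1 here, several of which other cells also express, as given with each gene.

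Taken over the 6 tested genes, each centred on its own mean over the 6 arrays, the mean log2 deviation was -0.12, -0.10 and -0.16 on OPP arrays, against -0.09, 0.18 and 0.28 on control arrays. Each control array was above each OPP array, with control replicate 1 just above OPP replicate 2 and control replicates 2 and 3 well above the rest. On OPP arrays 1, 2 and 2 of the 6 genes were above their own mean, against 2, 4 and 6 on control arrays. The pooled SD within groups of this mean was 0.14. Other transcripts moved in part along the same arrays. The mean log2 intensity of 4 red blood cell genes was 10.14, 11.01 and 10.16 on OPP arrays, against 10.21, 11.33 and 10.67 on control arrays, so that both groups held arrays with more and with less of it. For 5 genes of meninges and fibroblasts the means were 9.96, 10.003 and 9.71 on OPP arrays, against 10.17, 10.10 and 10.21 on control arrays. All 5 had fold changes below 0, where 51.1% of all tested probes did. Apod, a lipid-binding protein made by fibroblasts and glia, was lower at -0.58 ± 0.17 (SE, limma unadjusted p = 0.00818, adjusted p = 0.996). The 3 tested cerebellar genes were at 10.02, 9.93 and 9.58 on OPP arrays, against 10.99, 9.11 and 10.58 on control arrays, and 7 oligodendrocyte genes all had fold changes below 0, with a median of -0.22. Of these, 0 passed the unadjusted test with all arrays and 5 without control replicate 2, where 2 of the 3 cerebellar genes did. The cerebellar median was -0.45, against -0.95 without control replicate 2 and -0.0065 without control replicate 1, and the median of red blood cell genes was -0.30, against -0.0075 without control replicate 2. The part of blood, meningeal or regional content in the member values was not tested.

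**Figure D3:**
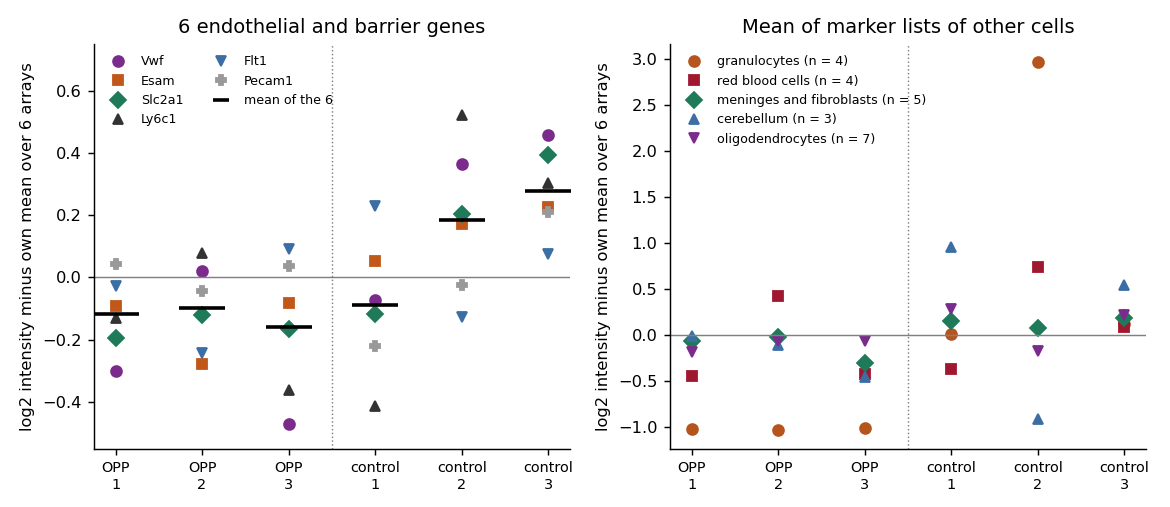
Left, log2 intensity of each tested member minus its own mean over the 6 arrays (vertical axis), by array, with bars for the mean of the 6 genes. Right, the same for the means of marker lists of other cells, where control replicate 2 is highest in granulocyte and red blood cell genes and lowest in cerebellar genes.

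Of 9 granulocyte genes on the array 4 were tested, and all 4 were lower in OPP brains at an unadjusted p under 0.05. Among all tested probes 2.21% were. S100a9, Ltf and Camp were above background on all 3 control arrays but on at most 1 OPP array. High detection in 1 group was enough for testing, so such genes could enter through the control group alone, where they were high. The count of 4 is thus partly set by that filter and is a description only. S100a8, which encodes a calcium-binding protein of neutrophils, gave 388, 476 and 314 on OPP arrays, against 1215, 13110 and 1723 on control arrays. Its log2 fold change was -2.96 ± 0.73 (SE, limma unadjusted p = 0.00275, adjusted p = 0.996), and -1.90 without control replicate 2. For S100a9, the partner of S100a8, and Camp, which encodes cathelicidin, the fitted log2 fold changes were -1.66 and -1.75, with each probe above background on only 1 of 3 OPP arrays. They were -0.76 for both without control replicate 2, and -2.78 and -3.79 on the authors' background-subtracted values. Ltf, which encodes lactoferrin, was above background on 0 of 3 OPP arrays, so its level in OPP brains is only a bound. Averaged on the log2 scale over the 3 control arrays, at 561, 3607 and 491, it was at least 3.54-fold higher in control brains (limma adjusted p = 0.996). This bound takes for each OPP array the higher of the probe's own value and the lowest value among probes above background. Without control replicate 2 the fitted log2 fold change of Ltf was -0.94, smaller than the bound. In that fit, added after seeing the data, S100a8 and Ltf passed adjustment (limma adjusted p = 0.00436 and 0.0127). With single arrays left out, S100a9 (without OPP replicate 1 or 2) and Camp (without any 1 of the OPP arrays) lost the unadjusted call. By contrast, of 6 tested microglial genes 1 was below 0 (median 0.09), and neuronal genes (9 tested, 5 below 0, median -0.01) lay on both sides of 0. With 1 array left out, the median of microglial genes ran from 0.03 to 0.17 and that of neuronal genes from -0.09 to 0.09. In the choroid plexus list 2 of 4 tested genes were below 0, and Aqp1, the water channel of that epithelium, was lower at -0.38 ± 0.13 (SE, limma unadjusted p = 0.0153, adjusted p = 0.996), though not without OPP replicate 2 (-0.29, limma unadjusted p = 0.0670) or without scaling between arrays (-0.31, limma unadjusted p = 0.0565). Without control replicate 2 all 4 choroid plexus genes were below 0 and 3 were lower (median -0.34), and without control replicate 3 only 1 was below 0 (median 0.15). Of 7 tested genes of astrocyte endfeet, 6 had fold changes below 0, with a median of -0.07 (-0.21 without OPP replicate 1), and none passed the test with all arrays.

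Wider lists of vessel genes, which leave out the 10 members, showed smaller shifts. These lists also hold genes that other cells express. Cldn11 (-0.16) and Gja1 (-0.06) of the junction list are also among the oligodendrocyte and the astrocyte endfeet genes above, respectively. Over 9 lists with 191 genes in all, 171 were on the array and 78 were tested, of which 53 had fold changes below 0 (67.9%) and 25 above. Among all tested probes 51.1% lay below 0, which is the share to hold against each list below. The median was -0.04, against -0.00 over all tested probes. At an unadjusted p under 0.05, 4 were lower (5.13%) and 1 was higher (1.28%), against 2.21% and 1.66% of all tested probes, and none passed adjustment. The count of lower genes ranged from 1 without OPP replicate 3 to 8 without control replicate 2.

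Genes of endothelial identity and signaling (21 tested) were split, with 11 below 0 and a median of -0.00, which lay on either side of 0 as single arrays were left out (-0.0040 to 0.025). One of them was higher. Ly6e, which encodes a lipid-anchored protein of the same family as Ly6c1, gave 2035, 1584 and 1777.5 on OPP arrays, against 1355, 1548 and 1489 on control arrays. The log2 fold change was 0.29 ± 0.12 (SE, limma unadjusted p = 0.0378, adjusted p = 0.996), with each OPP array above each control array. Ifitm3, which encodes an antiviral membrane protein induced by interferon, was at 481, 465 and 376 on OPP arrays, against 509, 833 and 520 on control arrays. It was lower at -0.46 ± 0.19 (SE, limma unadjusted p = 0.0403, adjusted p = 0.996), with no overlap between groups, and the estimate ran from -0.59 to -0.23 as single arrays were left out. Ly6e no longer passed without OPP replicate 1 or 3 or control replicate 1 or 3 (0.20 to 0.31), nor on the authors' values. Ifitm3 no longer passed without OPP replicate 2 or 3 or control replicate 2, nor with array weights (-0.27), the authors' values, no scaling between arrays, normexp background correction or quantile normalization.

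Among 9 tested genes of tight and adherens junctions, 6 were below 0 (median -0.07) and 2 were lower. Of all tested probes 51.1% were below 0 and 2.21% were lower. Cgnl1 encodes paracingulin, an adaptor at cell junctions. It gave 352, 389 and 334 on OPP arrays, against 530, 371.5 and 462 on control arrays, a log2 fold change of -0.33 ± 0.14 (SE, limma unadjusted p = 0.0428, adjusted p = 0.996). OPP replicate 2 was above control replicate 2, so its groups overlapped, and it passed in the fits without OPP replicate 2 and without control replicate 2 but in no other fit with 1 array left out, and not without scaling between arrays. Gja4 encodes connexin 37, a gap junction protein of arterial endothelium, and gave 421, 388 and 419 on OPP arrays, against 488, 457 and 481 on control arrays. Its groups did not overlap, with a log2 fold change of -0.22 ± 0.10 (SE, limma unadjusted p = 0.0493, adjusted p = 0.996). Gja4 no longer passed without scaling between arrays (-0.16, limma unadjusted p = 0.261), with only probes above background on all arrays (0.0512), or in any fit with 1 array left out but the one without control replicate 2. The highest fold change of the list was that of Ctnnb1 (beta-catenin, which links cadherins to the cytoskeleton and carries Wnt signals), at 0.20. The median was between -0.23 without control replicate 2 and -0.0079 without control replicate 3, and the count of lower junction genes ran from 0 without OPP replicate 3, control replicate 1 or control replicate 3 to 4 without control replicate 2.

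The 11 tested barrier transporters and receptors, a list that leaves out Slc2a1 and Abcb1a, all had fold changes below 0. Among all tested probes 51.1% did. The median of the list was -0.13, and none of its genes passed the unadjusted test. The lowest was Slc7a5, which encodes LAT1, the carrier of large neutral amino acids, at -0.26 ± 0.13 (SE, limma unadjusted p = 0.0811). Nearest to 0 was Slc2a3, which encodes GLUT3, the glucose carrier of neurons, at -0.02, and it lay above 0 without scaling between arrays and under some other settings. The median over all tested probes was 0.06 without that scaling, against -0.00 with it. Leaving the scaling out moves every log2 fold change upwards by the same amount, such as from -0.02 to 0.045 for Slc2a3. Slco2b1 (-0.03), Slc40a1 (-0.04) and Slc29a1 (-0.04) lay near enough to 0 to turn above it as well. The count of 11 below 0 thus depends on the scaling. Without control replicate 1 or control replicate 2, 9 of 11 remained below 0, and the counts of lower genes were then 2 and 1. The median was -0.05 without OPP replicate 2. Slc7a5 was lower with array weights (-0.38) and without control replicate 1 (-0.33).

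**Figure D4:**
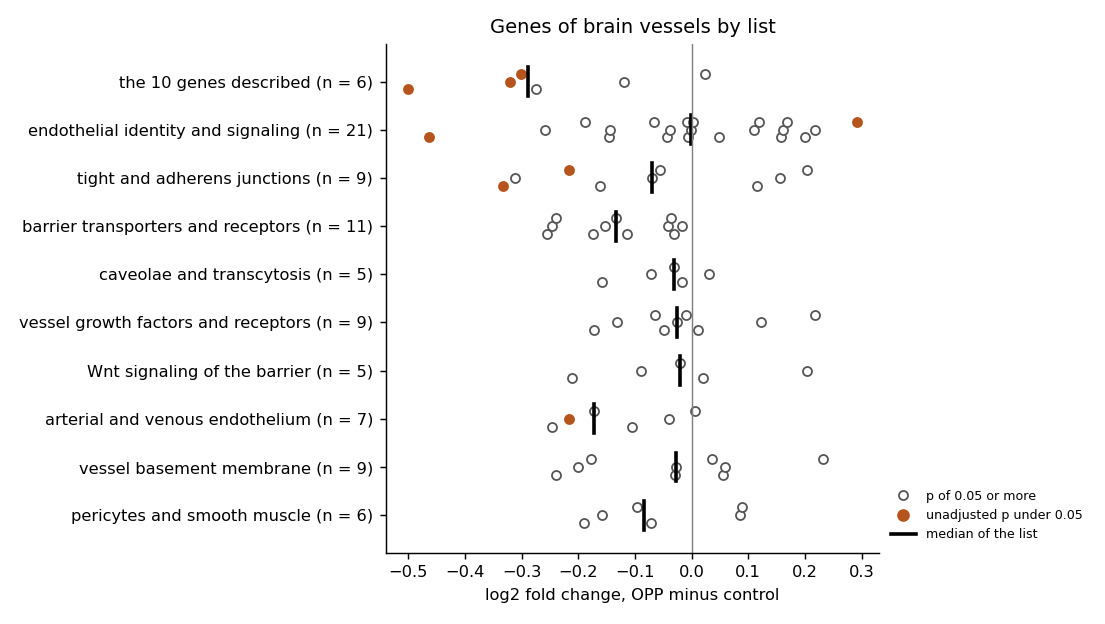
Log2 fold change, OPP minus control (horizontal axis), of the tested genes of each vessel list, with the genes described above in the top row, filled points for an unadjusted p under 0.05 and a black bar for the median of each list. As scaled here, the 11 transporters and receptors all lie below 0. Lcn2 of the arterial and venous list, at -1.66, is outside the plotted range and is not drawn.

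In the list of arterial and venous endothelium, 6 of 7 tested genes were below 0, with a median of -0.17. Gja4, given above, and Lcn2 were lower. Of all tested probes 51.1% were below 0 and 2.21% were lower. Lcn2 encodes lipocalin 2, which binds bacterial iron carriers and is made by granulocytes as well as by activated endothelium. It gave 283, 445 and 224 on OPP arrays, against 357.5, 3387 and 739 on control arrays, so the groups overlapped, and control replicate 2, the array with the highest granulocyte signal, was far above the rest. Its log2 fold change was -1.66 ± 0.67 (SE, limma unadjusted p = 0.0350, adjusted p = 0.996). It was -0.76 without control replicate 2, and no longer passed without OPP replicate 1 (-1.61) or OPP replicate 3 (-1.44). In the fits with 1 array left out, 0 to 3 genes of the list were lower. The Notch target Hey1 was highest in that list at 0.01, and its sign turned under some settings.

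With all arrays and the settings used here, none of the other vessel lists held a gene that passed the unadjusted test. Of 5 tested genes of caveolae and transcytosis, 4 were below 0 (median -0.03), from Plvap, which encodes the diaphragm protein of fenestrated vessels, at -0.16, to Cavin3, a coat protein of caveolae, at 0.03. Of 9 vessel growth factors and receptors, 6 were below 0 (median -0.03) but only 2 without OPP replicate 2 (median 0.03, with Pdgfa then higher), from the receptor Notch4 at -0.17 to Pdgfa, which encodes a platelet-derived growth factor, at 0.22. Wnt signals from brain cells induce barrier properties in the endothelium. Of 5 tested genes of that pathway, 3 were below 0 (median -0.02), and the ligand Wnt7a was lowest at -0.21, above background on 1 of 3 OPP arrays and 2 of 3 control arrays. Of 9 basement membrane genes, 5 were below 0 (median -0.03), from Hspg2, which encodes perlecan, at -0.24 to the collagen gene Col4a1 at 0.23. Of 6 tested genes of pericytes and smooth muscle, 4 were below 0 (median -0.08), from Vtn, which encodes vitronectin, at -0.19 to Higd1b at 0.09. With 1 array left out, the medians also turned above 0 for caveolae and for Wnt signaling (without control replicate 1) and for basement membrane (without OPP replicate 2 or control replicate 2). Hspg2 passed the unadjusted test under 4 alternatives, among them the authors' values (-0.60), Wnt7a under 3, among them the authors' values (-0.68), and Col4a1 under 2, array weights (0.24) and without control replicate 2 (0.32).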

How the data were processed

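Total RNA from each brain was labelled and hybridised to an Illumina MouseRef-8 array. The deposited file holds, per probe and array, the mean bead intensity, summarised by the authors with BeadStudio 1.5.1.3 without normalization or background subtraction, and a detection p-value from the same software. The deposited value table of the authors holds the same intensity after background subtraction and rank-invariant scaling, and was used as an alternative. Probes were paired with genes through the platform annotation (19398 of 24048 had 1 symbol, 4650 none and 0 several).

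Intensities were scaled here by the median ratio to the mean array over rank-invariant probes (rank shift under 5%, without the lowest 25% and highest 10%), floored at 10 and taken to log2. Tested were the 7611 probes whose detection level averaged over 0.99 in either group. OPP was set against control with limma 3.58.1 in R 4.3.3, with Benjamini-Hochberg adjustment over all tested probes. The scanner software's error model used by the study was not rebuilt. A gene was represented by its brightest tested probe. Settings were checked on simulated data. The small number of arrays limits the precision. An unadjusted p-value sets the difference between groups against the spread between arrays within them. For each probe, limma draws that spread towards the spread over all tested probes.

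The 10 genes and all lists were chosen with earlier results of these data known. Named are the 10 genes, and of each vessel list the genes at an unadjusted p under 0.05 and those with the highest and lowest fold change. For other cells, the mean per array is given, with genes at an unadjusted p under 0.05. Promoter windows and their positions come from RefSeq (GRCm38.p6). Alternatives were other scaling, background correction, probe filters, array weights, a replicate block and leaving out each array.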

Additional observations from a re-analysis of the deposited data

How the results depend on the processing

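Under every alternative tried, Vwf, Esam, Slc2a1, Ly6c1 and Flt1 kept fold changes below 0. The 3 lower members became 1 without scaling between arrays, 2 with quantile normalization, normexp background correction or the authors' values, and 0 to 4 with single arrays left out (median -0.40 to -0.20). Among all probes, the 1 adjusted call became 2 with all probes of the array, the authors' values or normexp, 3 with array weights, 0 with only probes above background on all arrays, and 1 to 7 with single arrays left out (7 without control replicate 2). The 168 lower probes became 531 with all probes, 520 with array weights, 71 without scaling and 115 to 510 with single arrays left out. The 126 higher probes became 453, 264, 147 and 72 to 279 under the same settings. Signs turned for Pecam1 (-0.072 with array weights, -0.080 to 0.14 with single arrays left out), Cavin3 (-0.037 to 0.12), Ctnnb1 (-0.010 to 0.35), Hey1 (-0.13 with array weights, -0.15 to 0.085) and Higd1b (-0.0012 to 0.16). For Slc2a3 the values were 0.0045 with array weights, 0.045 without scaling, 0.024 with normexp, 0.022 with quantile normalization and -0.087 to 0.047 with single arrays left out. The cause was not tested.

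Deviations from the group means correlated at -0.27, 0.05 and 0.17 across probes for same-numbered arrays of the groups. These values lay inside the range of -0.31 to 0.29 for arrays with different numbers. With 3 arrays per group this cannot settle whether the numbers pair the samples, and the main fit used no pairing. A replicate block gave 145 lower and 95 higher probes, 1 adjusted call and 3 lower members, and Ly6e, Cgnl1 and Gja4 no longer passed the unadjusted test under it. Leave-one-out fits of the vessel and other cell lists, and all alternatives for genes named from them, were added after seeing the data. Cdh5, short of the level set for testing, and Tek and Abcb1a, above background on none of the arrays, have no measured difference. With the authors' own background removed, Vwf, Esam and Slc2a1 had log2 fold changes of -0.72, -0.36 and -0.35.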
